A study of Mus musculus with 24 samples.

Results

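The comparison described here is the response of whole kidneys to parathyroid hormone (PTH), across all genes. It rests on 16 of the 24 libraries of the series, 8 from C57BL6 mice given hPTH(1-34), the active fragment of human PTH, and 8 from C57BL6 mice given vehicle, grouped by the treatment in their labels. The other libraries came from mice given the kinase inhibitor YKL-05-099. They entered the model to estimate the spread between libraries, and also the filter on mean level and the alternative scalings. The mice are described as adult wild-type males treated with a single injection and killed shortly after it, by the intraperitoneal route in the series text and the subcutaneous route in the study's methods. No sort or dissection preceded RNA extraction, so each library mixed all kidney cell types, and fewer cells of a type and less RNA per cell cannot be told apart.

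PTH is secreted when blood calcium falls. In the kidney it acts on PTH1R, a receptor of proximal and distal tubule cells and podocytes that couples to Gs and raises cAMP. Protein kinase A then phosphorylates CREB and, by inhibiting salt-inducible kinases, frees the CRTC coactivators of CREB, so that genes with cAMP response elements in their promoters are transcribed within minutes. The known endocrine outcome is more active vitamin D, less phosphate reabsorption in the proximal tubule and more calcium reabsorption in the distal tubule.

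The 16 libraries held about 6580000 to 7210000 fragments each, estimated from the steps between low values, with medians of 7045000 in PTH and 7000000 in vehicle libraries, and 16431 to 16835 of 19426 listed genes were above 0 FPKM in each. Xist, transcribed from the silenced X, ran from 76.4 to 110 FPKM over the 16 libraries and the Y-linked gene Ddx3y at no more than 0.1 FPKM, which goes against the male label. The series text gives 6 mice per treatment, against 8 libraries per group, so it is not known whether each library is a separate animal, and the p-values measure only the spread between these libraries. Markers of every kidney cell type listed were detected in both groups, and few were called. Of 4 distal convoluted tubule markers 2 were lower (Trpm6 and Calb1), with a summed level of 402 to 503 FPKM in PTH and 441 to 614 FPKM in vehicle libraries. Of 4 macrophage markers 1 was higher (Csf1r), with sums of 27.7 to 52.9 and 23.2 to 32.9 FPKM, and 1 podocyte marker was higher and 1 intercalated cell marker lower. The part of cell composition in the results was not tested. The summed level of 6 urothelium markers ran from 2.43 to 149 FPKM in PTH and from 3.72 to 110 FPKM in vehicle libraries, with no member called, and 3 libraries (PTH replicates 1 and 5 and vehicle replicate 7) had the highest scores.

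The genes tested were the 13991 that averaged 0.5 FPKM or more over all 24 libraries. Of these, 2397 (17.1%) were called at an adjusted p below 0.05, 839 (6.0%) higher and 1558 (11.1%) lower in PTH kidneys. The larger changes ran the other way in number, with 117 genes (0.836%) at least 2-fold higher and 53 (0.379%) at least 2-fold lower. In 223 genes (1.59%) all 8 PTH libraries lay above all 8 vehicle libraries, and in 174 genes (1.24%) all lay below. The number called depended on the model. A fit of the 16 PTH and vehicle libraries alone called 1949 genes, 725 higher and 1224 lower. Weighting the libraries by quality gave 3049, with 1052 higher and 1997 lower. The excess of small decreases depended on the scaling of the libraries: median-ratio scaling gave 1097 higher and 1102 lower, and quantile normalization 1051 and 1332. These scalings moved the median log2 fold change of all genes, which was -0.046, to -0.003 and -0.012. The plot of fold change against level shows the long upper tail over a narrow band of decreases.

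**Figure D1:**
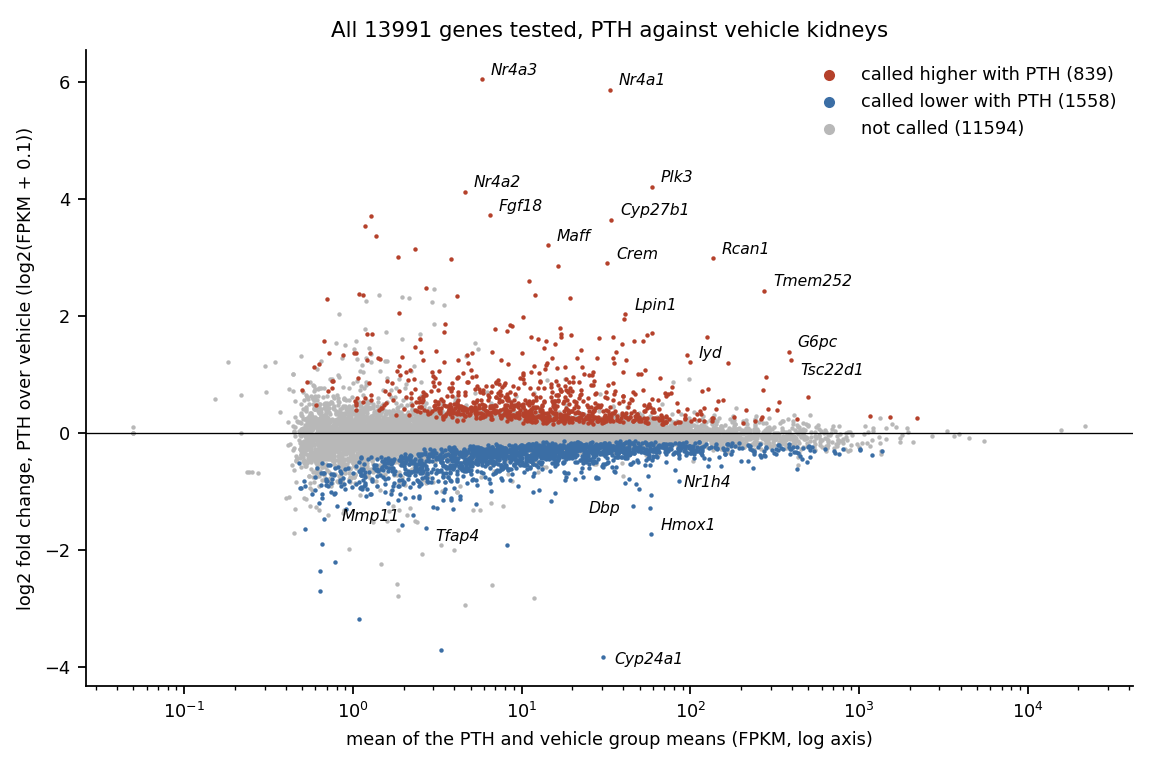
Log2 fold change of PTH over vehicle kidneys on the log2(FPKM + 0.1) scale, against the mean of both group means in FPKM on a log axis, with 1 point for each of 13991 genes. Red points were called higher (839), blue points called lower (1558) and grey points not called, and Nr4a3 and Nr4a1 stand highest among the labelled genes at 6.05 and 5.87.

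The promoters of the genes that rose most were read for the sites that CREB binds. RefSeq promoters (GRCm38.p6, 250 bases before to 50 after the gene's start) were matched for 92 of the 117 genes at least 2-fold higher, 33 of the 53 at least 2-fold lower and 10996 of all genes tested. The full cAMP response element, TGACGTCA, which reads the same on both strands, was in 11 of the 92 (11.96%) and in 1 of the 33 (3.03%), against 3.29% of all promoters. Its shorter core, TGACG on either strand, which every full element also contains, was in 56 (60.9%) and 6 (18.2%) of them, against 33.8% of all. Promoters of the 92 also had a higher GC content, at a median of 63.8%, with 57.7% for the 33 and 60.3% for all, and the part of GC content in the motif shares was not tested. The AP-1 site TGANTCA was in 5 of the 92 (5.43%), 1 of the 33 and 6.45% of all, and the NR4A site AAAGGTCA was in none of either set and in 1.31% of all. A match is only a run of letters and does not show that a factor binds there.

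Stretches of 30 bases around the full element are shown for 8 of the 11 genes, which are described with their values in the paragraphs that follow. They are written 5′ to 3′ on the strand of the gene, with the element in capitals.
Maff: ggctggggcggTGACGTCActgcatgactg
Rcan1: gactaaggtgtTGACGTCAcctctttccag
Dusp1: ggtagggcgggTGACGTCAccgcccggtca
Tinf2: aggggacctcgTGACGTCAcagctccctcc
Btg2: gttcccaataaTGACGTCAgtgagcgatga
Dusp8, first element: gcccgctccgcTGACGTCAcctgcccccga
Dusp8, next element: ttggctgcaggTGACGTCAggggctttttc
Epha2: cgtggtttcggTGACGTCAgcgcagggcat
Zbtb21: ctggtgtgggaTGACGTCAaattcaagatg
The Maff stretch lies at chr15:79347480-79347509 on the plus strand, with the element starting at -29 from the gene's start, and the Epha2 stretch at chr4:141301177-141301206 on the plus strand, at -33. On the minus strand lie those of Rcan1 (chr16:92400235-92400264, at -175), Dusp1 (chr17:26508597-26508626, at -143), Tinf2 (chr14:55681855-55681884, at -56) and Btg2 (chr1:134079303-134079332, at -166). Dusp8 holds its elements at chr7:142095373-142095402 and chr7:142095329-142095358 on the minus strand, at -107 and -63, and in Zbtb21 (chr16:97962604-97962633, minus strand) the element begins at the start itself. The other carriers, Ell2, Tmem198 and Hps4, were named for the element after their values were seen, and had log2 fold changes of 1.57, 1.36 and 1.24.

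Transcription factors held the steepest increases. Of 45 bZIP factors, 15 rose and 5 fell, against 6.0% and 11.1% of all genes, with a median log2 fold change of 0.21 where that of all genes was -0.046. Crem, a cAMP-responsive member of the CREB family, had the smallest adjusted p of any gene. It was at 48.5, 54.4 and 71.2 FPKM (lowest, median and highest library) in PTH kidneys and at 6.03, 7.69 and 9 FPKM in vehicle kidneys, with a log2 change of 2.90 (SE 0.13, adjusted p = 4.0e-14). Both groups lay far apart, with a narrow range in each. Maff, a small MAF protein, spread more widely, from 15.8 to 60.6 FPKM (median 20.5) with PTH and from 1.58 to 5.37 (median 2.31) with vehicle, at a log2 change of 3.21 (SE 0.29, adjusted p = 1.0e-08). Fosl2, an AP-1 subunit, and Cebpb, a regulator of acute phase and gluconeogenic genes, rose by 2.86 and 2.31 on the same scale.

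The bZIP factors that fell were mostly of another branch, the PAR factors that carry clock output. Dbp had 15.2, 23.1 and 47.1 FPKM in PTH kidneys, against 46.6, 62.8 and 78.7 FPKM in vehicle kidneys (log2 fold change -1.25, SE 0.19, adjusted p = 4.6e-05). Hlf was at 16.2 to 27.9 FPKM with PTH and at 28.3 to 33.2 with vehicle, and Tef at 42.2 to 50.8 and 51.9 to 69.1, log2 fold changes of -0.52 and -0.47. The ranges of Hlf and Tef did not overlap, and 7 of 8 PTH libraries were below every vehicle library for Dbp. Nfil3, the bZIP repressor that competes with these factors for their sites, rose by 1.78 (SE 0.26, adjusted p = 2.1e-05), with 7.56 to 19.5 FPKM in PTH and 1.18 to 3.81 FPKM in vehicle kidneys. Cebpa, a differentiation factor of liver and fat, also fell with no overlap, at 10.9, 12.2 and 15.7 FPKM with PTH and 16.3, 18.7 and 21.4 with vehicle (log2 fold change -0.56, adjusted p = 3.2e-05). A list of 18 clock repressors and PAR factors was split, with 4 higher and 7 lower (61.11% called, against 17.1% of all genes). It included Per1 at 1.57 and Bhlhe41 at -0.93 on the log2 scale (-0.52 for Bhlhe41 with a pseudocount of 1 FPKM).

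Nuclear receptors, ligand-gated or orphan transcription factors, divided as well, with 6 of 41 higher and 6 lower (29.27% called, against 17.1% of all genes). The orphan receptor Nr4a1 (gene 15370, chromosome 15, 101253902 to 101274795) was at 27.2, 57.2 and 133 FPKM in PTH kidneys and at 0.23, 1.14 and 1.48 FPKM in vehicle kidneys, which is a log2 change of 5.87 (SE 0.34, adjusted p = 3.9e-12). No other gene above 1 FPKM in either group rose more apart from its relative Nr4a3, which was at 0 in some vehicle libraries, so that the size of its change depends on the pseudocount. Rora, a receptor that activates clock genes, rose by 0.81. The receptors that fell included Nr1d1, with log2 fold changes of -0.90 to -0.78 over the alternative settings, and 3 with metabolic roles. Nr1h4, the bile acid receptor FXR, had 56.6, 62.9 and 76.2 FPKM in PTH kidneys, against 81.8, 98.5 and 115 FPKM in vehicle kidneys (log2 fold change -0.63, SE 0.07, adjusted p = 1.2e-06). Nr1i2, the xenobiotic receptor PXR, was at 2.31, 3.22 and 4.58 FPKM with PTH and 4.83, 5.76 and 6.65 FPKM with vehicle (log2 fold change -0.74, adjusted p = 2.3e-04). In both genes each PTH library was below each vehicle library. Ppara, which drives fatty acid oxidation, followed at -0.47 (adjusted p = 4.6e-04), with 6 of 8 PTH libraries below the vehicle range.

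Other families of factors were mixed. The share called was 28.57% of forkhead factors, 30.19% of coregulators and 35.0% of Krüppel-like and SP factors, against 17.1% of all genes. Forkhead factors counted 5 higher and 1 lower of 21 (3 higher without vehicle replicate 8, PTH replicate 6 or PTH replicate 8), led by Foxo3, a factor restrained by insulin signalling, at 11.1, 17.7 and 32.5 FPKM with PTH and 4.53, 8.14 and 11.7 with vehicle (log2 fold change 1.16, SE 0.21, adjusted p = 4.0e-04). Coregulators counted 12 higher and 4 lower of 53. Tsc22d1, a leucine zipper protein without a DNA-binding domain of its own, was among the most abundant genes that rose, at 382, 555 and 880 FPKM in PTH kidneys and 167, 227 and 317 FPKM in vehicle kidneys (log2 fold change 1.25, SE 0.18). The antiproliferative genes Tob2 and Btg2 rose by 1.38 and 1.57, and Cited2, a competitor for the coactivators CBP and p300, fell by 0.78. Krüppel-like and SP factors had 4 higher and 3 lower of 20 (1 lower without the 3 libraries highest in urothelium markers), with Klf2 and Klf4, which mark flow-exposed endothelium among other cells, at 1.02 and 0.87. Of 83 homeobox and related genes 8 rose and 10 fell (21.69% called, against 17.1% of all genes). The nephron patterning genes Irx1 and Irx2 rose by 0.54 and 0.55 with no overlap between groups. Of 48 bHLH factors 5 rose and 6 fell (22.92% called). Tfap4, an E-box factor known as a MYC target, fell most of them, to 0.79, 1.39 and 1.97 FPKM in PTH kidneys, against 2.47, 4.27 and 5.23 FPKM in vehicle kidneys (log2 fold change -1.62, SE 0.16, adjusted p = 5.1e-08). Hes1, the Notch target, had a log2 fold change of -0.49.

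C2H2 zinc finger proteins, most of which are DNA-binding repressors, were the largest family of transcription factors. Of 406 measured, 96 (23.6%) fell and 23 rose, and 74.1% had a fold change below 0, against 59.3% of all genes. The decreases were small, with a median log2 fold change of -0.48 among the 96, and in 15 of these all PTH libraries were below all vehicle libraries. Zfp28 was one, at 0.83, 1.08 and 1.33 FPKM with PTH and 1.70, 2.07 and 2.23 FPKM with vehicle (log2 fold change -0.88, SE 0.11, adjusted p = 1.6e-06, and -0.55 with a pseudocount of 1 FPKM). The lower count was 87 with median-ratio scaling and 84 after the trend of each library with transcript length and GC content was removed. Over all genes it fell as well, from 1558 of 13991 to 1102 with median-ratio scaling and to 1212 of 13866 after that removal. The zinc finger genes had a median transcript GC content of 44.8%, against 49.7% for all genes, and the part of GC content in their decrease was tested only by that removal. At least 2-fold increases were seen in 3 members, Zfp648 (log2 fold change 1.37, and 0.75 with a pseudocount of 1 FPKM) and a pair of the BTB type. Zbtb10 was at 7.69 to 24.4 FPKM with PTH and 2.81 to 3.95 with vehicle (log2 fold change 1.85), and Zbtb21, whose element is printed above, at 5.69 to 8 and 2.37 to 3.62 (log2 fold change 1.08).

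**Figure D2:**
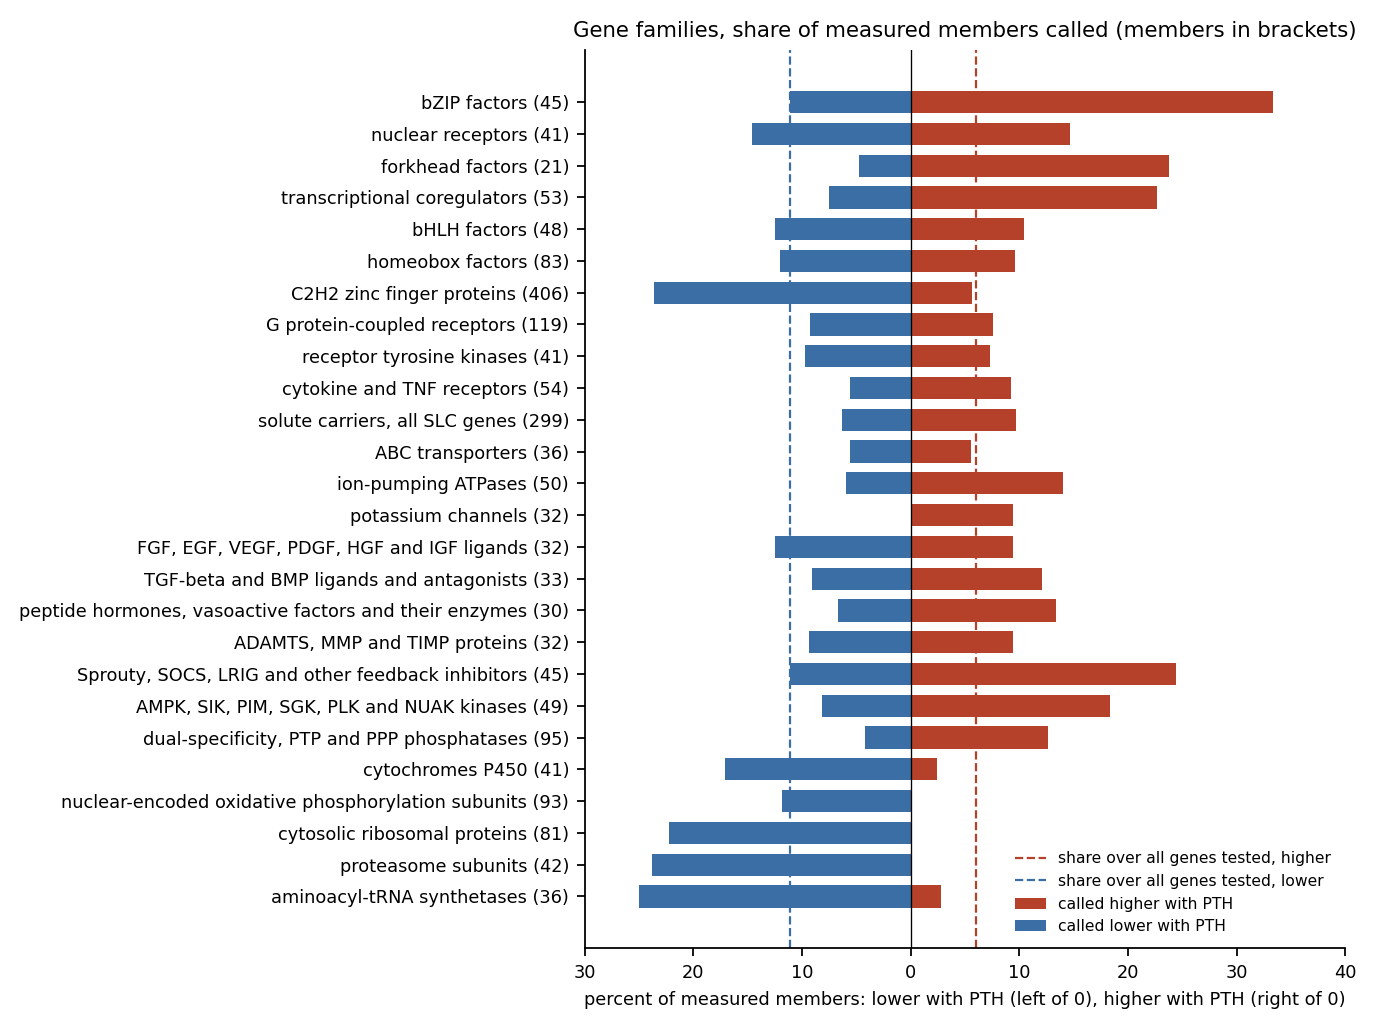
Percent of the measured members of 26 gene families called lower (blue, left of 0) or higher (red, right of 0) in PTH kidneys, with the number of members in brackets and dashed lines at the 11.1% and 6.0% of all genes tested. The red bar is longest for bZIP factors (15 of 45), and C2H2 zinc finger proteins, ribosomal proteins, proteasome subunits and aminoacyl-tRNA synthetases have blue bars well past the line.

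Receptor families were called at or below the 17.1% of all genes, with a few clear cases. The lowest shares were 4.44% of 45 integrins and adhesion receptors, 6.67% of 15 TGF-beta and BMP receptors and 10.26% of 39 Notch, LDL and scavenger receptors. Of 119 G protein-coupled receptors 9 rose and 11 fell (7 fell with median-ratio scaling), and the median log2 fold change was -0.038. Cxcr4, the receptor of the chemokine CXCL12, was at 3.29, 4.94 and 7.62 FPKM in PTH kidneys and at 1.74, 1.95 and 2.42 FPKM in vehicle kidneys (log2 fold change 1.21, SE 0.14, adjusted p = 9.9e-07), with no overlap. Mchr1, a receptor of melanin-concentrating hormone, rose by 1.69 (SE 0.40, adjusted p = 0.0043, and 0.84 with a pseudocount of 1 FPKM), but at low levels, from 0.69 to 2.83 FPKM with PTH and 0 to 0.97 FPKM with vehicle. S1pr1, the sphingosine 1-phosphate receptor of endothelium, and Avpr1a, a vasopressin receptor, rose by 0.64 and 0.43, and the Avpr1a call was lost without the 3 libraries highest in urothelium markers (log2 fold change 0.38, adjusted p = 0.0737). Lpar6, a lysophosphatidic acid receptor, had 5.18, 6.86 and 7.15 FPKM with PTH and 9.48, 10.8 and 12.6 FPKM with vehicle (log2 fold change -0.69, adjusted p = 1.6e-06). Sucnr1, the succinate receptor, fell by 0.62 with overlapping ranges. Pth1r itself was not called, at 134 ± 8.79 FPKM in PTH and 146 ± 10.9 FPKM in vehicle kidneys (SD, n = 8 each, adjusted p = 0.14).

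Among 41 receptor tyrosine kinases 3 rose and 4 fell (2 fell with median-ratio scaling). Epha2, an ephrin receptor of epithelia, was at 2.55, 5.74 and 11.7 FPKM with PTH and 1.33, 1.82 and 4.41 with vehicle (log2 fold change 1.24, SE 0.29, adjusted p = 0.0044), and 5 of 8 PTH libraries were above the vehicle range. The EGF receptor partner Erbb3 (gene 13867, chromosome 10, 128567523 to 128589635) went the other way, to 5.21, 8.70 and 10.9 FPKM in PTH kidneys, against 13.7, 17.1 and 20.5 FPKM in vehicle kidneys (log2 fold change -0.97, SE 0.13, adjusted p = 4.9e-06). Its dimerization partner Erbb2 fell less, by 0.33. Of 54 cytokine and TNF receptors 5 rose and 3 fell, with Tnfrsf1b, which encodes the TNF receptor of immune cells and endothelium, at 2.01 to 3.99 FPKM with PTH and 0.78 to 2.36 FPKM with vehicle (log2 fold change 1.29, SE 0.18, and 0.85 with a pseudocount of 1 FPKM). The death receptor gene Tnfrsf25 rose by 1.57 (0.65 with that pseudocount) at a median of 0.95 FPKM with PTH and 0.26 FPKM with vehicle.

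Solute carriers were called about as often as all genes, at 16.05% against 17.1%. Of 299 solute carrier genes 29 rose and 19 fell (12 fell with median-ratio scaling), with a median log2 fold change of 0.009. By subfamily the share called ran from 5.56% of 18 sugar and sodium-coupled carriers to 23.81% of 42 organic ion carriers. Slc20a1, the sodium-phosphate cotransporter PiT1, was the carrier with the largest increase, at 28.95, 52.2 and 82.2 FPKM in PTH kidneys and 14.2, 15.7 and 23.7 FPKM in vehicle kidneys (log2 fold change 1.63, SE 0.17, adjusted p = 1.6e-07). The brush border phosphate carriers were not called: Slc34a1 averaged 1252 ± 176 FPKM with PTH and 1176 ± 105 FPKM with vehicle, and Slc34a3 had 20.2 ± 3.82 and 18.9 ± 1.41 FPKM (SD, n = 8 each). Mfsd7b (gene 226844, chromosome 1, 191005832 to 191026190), the heme exporter FLVCR1, had the smallest adjusted p of the transporters. It was at 13.7, 14.4 and 15.7 FPKM with PTH and at 4.85, 5.57 and 6.27 FPKM with vehicle, with a log2 change of 1.38 (SE 0.07, adjusted p = 5.5e-13). The spread within each group was under 1 FPKM, with SDs of 0.572 and 0.473.

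Amino acid carriers counted 6 higher and 1 lower of 44, with 3 higher without vehicle replicate 2, vehicle replicate 7 or PTH replicate 7, and 2 lower without PTH replicate 4 or 7. Over all libraries 15.91% were called, against 17.1% of all genes. Slc38a2, a sodium-coupled carrier of small neutral amino acids, had 30.7, 34.0 and 45.6 FPKM in PTH kidneys and 15.9, 16.7 and 19.8 FPKM in vehicle kidneys (log2 fold change 1.04, SE 0.11, adjusted p = 1.4e-07). Slc3a2, the heavy chain shared by several exchangers, was at 153 to 235 FPKM with PTH and 116 to 151 FPKM with vehicle (log2 fold change 0.56). The glutamine carrier Slc38a3 rose by 0.74. Slc16a10, the aromatic amino acid carrier TAT1 of the basolateral membrane, is counted with the organic ion carriers and was at 27.8, 33.4 and 41.2 FPKM with PTH and 15.2, 16.6 and 18.9 FPKM with vehicle (log2 fold change 1.00, SE 0.07, adjusted p = 2.2e-10). For Slc38a2, Slc3a2 and Slc16a10 the ranges did not overlap. Slc39a14, the zinc and iron carrier ZIP14, rose by 1.04 and Slc9a8, a sodium-proton exchanger, by 0.68.

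Carriers of carboxylates and organic cations were among those that fell. Slc13a2, the citrate and succinate carrier of the brush border, was at 17.8, 25.2 and 28.85 FPKM with PTH and 28.91, 37.5 and 41.9 FPKM with vehicle (log2 fold change -0.57, SE 0.12, adjusted p = 0.0011). An antisense gene overlaps it, and without a stated strand setting the reads of both cannot be told apart. Slc22a4, an ergothioneine carrier, and Slc25a20, which brings acylcarnitines into mitochondria, fell by 0.48 and 0.40. Ion pumps had 7 higher and 3 lower of 50 (1 lower without PTH replicate 5). Their share called was little above the 17.1% of all genes. The endoplasmic reticulum calcium pump gene Atp2a2 was at 78.5 to 118 FPKM in PTH and 55.5 to 81.1 FPKM in vehicle kidneys. Its log2 fold change was 0.52, and those of the proton pump subunits Atp6v0d1 and Atp6v0c were 0.45 and 0.40. Potassium channel genes were called less often than all genes, at 9.38%, and of 32 measured 0 fell and 3 rose. These were Kcne4, an inhibitory accessory subunit (log2 fold change 1.60, SE 0.29), Kcnk5, the pH-sensitive TASK2 channel of the proximal tubule (0.64), and Kcnj8, the pore of vascular ATP-sensitive channels (0.63). Kcnk5 had 40.01, 46.6 and 59.0 FPKM with PTH and 21.3, 31.8 and 39.1 FPKM with vehicle, without overlap. The magnesium channel gene Trpm6 and the anoctamin gene Ano3 fell by 0.62 and 1.04 (Ano3 by 0.68 with a pseudocount of 1 FPKM). Trpm6 is 1 of the distal convoluted tubule markers, 2 of 4 of which were lower, whereas Slc12a3, the defining one, had a median of 217 FPKM with PTH and 218 FPKM with vehicle (adjusted p = 0.823). The ABC genes that rose, the conjugate exporter Abcc3 and the lipid carrier Abca3, had log2 fold changes of 0.55 and 0.49.

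**Figure D3:**
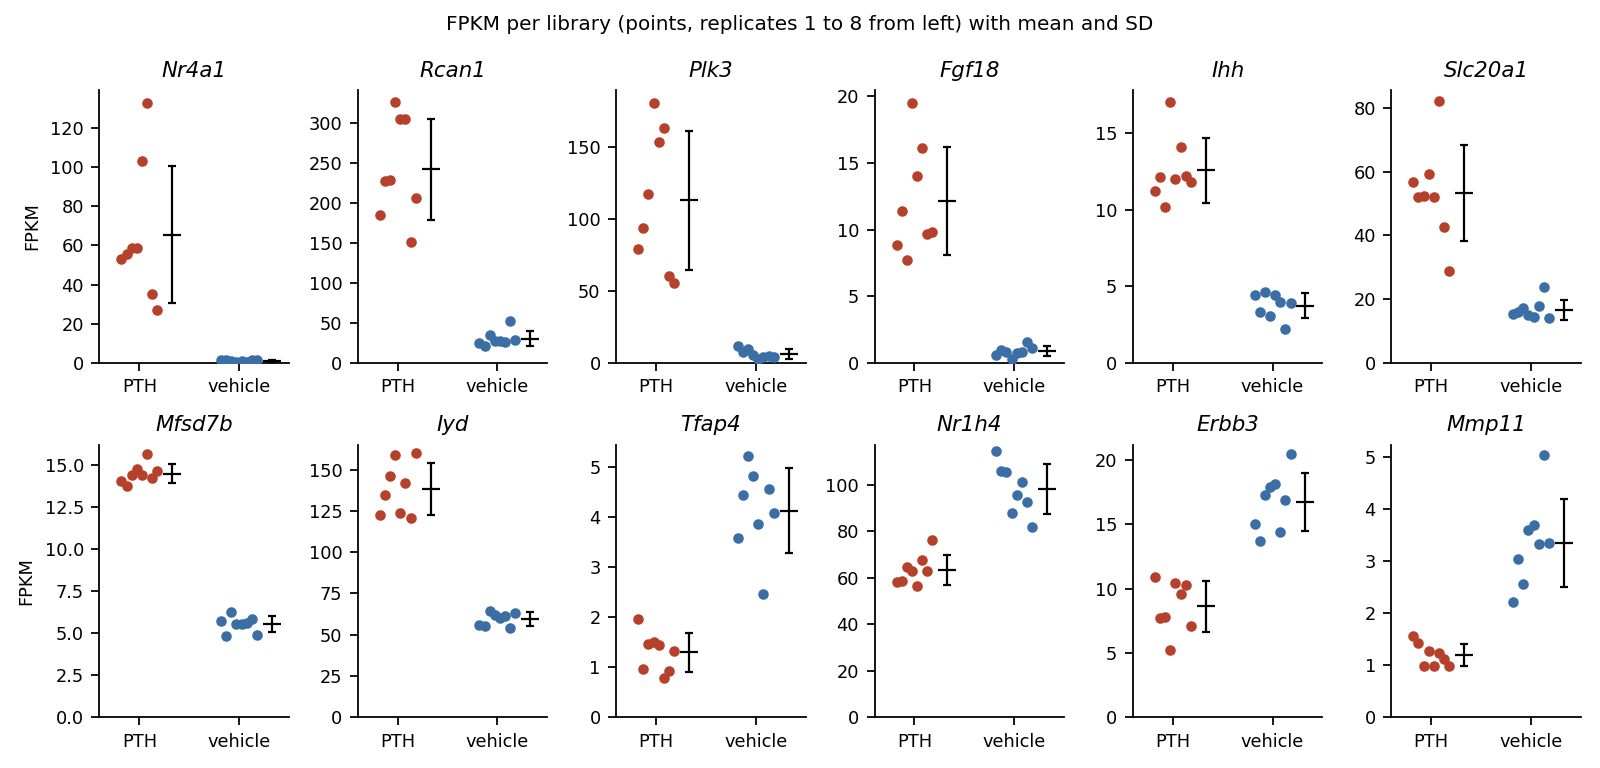
FPKM in each library for 12 genes, PTH libraries (red) left of vehicle libraries (blue), replicates 1 to 8 from left to right, with the group mean and SD in black and every axis starting at 0. The groups do not overlap in any of the 12 genes, and the PTH libraries of Nr4a1 (27.2 to 133 FPKM) spread far more than those of Mfsd7b (13.7 to 15.7 FPKM).

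Genes of secreted factors included some that were near or under 1 FPKM without PTH. Fgf18 (gene 14172, chromosome 11, 33116970 to 33147400), a fibroblast growth factor of skeletal growth, was at 7.73, 10.6 and 19.5 FPKM in PTH kidneys and at 0.27, 0.81 and 1.54 FPKM in vehicle kidneys, which is a log2 change of 3.72 (SE 0.30, adjusted p = 1.6e-09). It was 1 of 3 growth factors higher of 32, with Hbegf, an EGF receptor ligand, at 0.88, while 4 fell, Fgf9 by 0.57 among them (2 without vehicle replicate 6 or PTH replicate 7). Of the 32, 21.88% were called, against 17.1% of all genes. Ihh, the Indian hedgehog ligand, was at 10.2, 12.1 and 17.1 FPKM with PTH and 2.20, 3.95 and 4.65 FPKM with vehicle (log2 fold change 1.74, SE 0.13, adjusted p = 2.4e-10). All PTH libraries were above all vehicle libraries for Fgf18 and Ihh.

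Hormone and peptide genes had 4 higher and 2 lower of 30 (4 lower without PTH replicate 3, and 1 when any 1 of 8 other libraries was left out). The share of them called was little above the 17.1% of all genes. Calca, which encodes calcitonin and the vasodilator CGRP, was at 1.73, 3.68 and 4.68 FPKM in PTH kidneys and 0.32, 1.35 and 1.62 FPKM in vehicle kidneys (log2 fold change 1.46, SE 0.29, adjusted p = 8.7e-04). The gene-level value does not separate its 2 products. Stc1, which encodes stanniocalcin 1, a regulator of calcium and phosphate in fish, rose by 1.06, with 2.54 to 6.02 FPKM in PTH and 1.07 to 2.59 FPKM in vehicle kidneys. Metrnl, a secreted factor of muscle and fat, rose by 0.62, and Adm2, a vasodilator of the calcitonin family, had a log2 fold change of -0.80 (adjusted p = 0.0084). In the TGF-beta and BMP group, 4 of 33 rose and 3 fell (21.21% called). Nog, the BMP antagonist noggin, was at 0.61 to 1.45 FPKM with PTH and 0.16 to 0.63 FPKM with vehicle (log2 fold change 1.36, SE 0.31, and 0.60 with a pseudocount of 1 FPKM), while Bmp4, one of its ligands, had 13.99, 18.99 and 24.8 FPKM with PTH and 23.1, 27.9 and 31.1 FPKM with vehicle (log2 fold change -0.60, adjusted p = 7.9e-05). Other BMP modulators fell, Tsku by 1.28 and Chrdl2 by 1.24. Chrdl2 had a median of 0.335 FPKM with PTH and 1.19 FPKM with vehicle, and with a pseudocount of 1 FPKM its log2 fold change was -0.58. In contrast, the stress cytokine gene Gdf15 rose by 0.92.

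Of 32 ADAMTS, MMP and TIMP genes, extracellular proteases and their inhibitors, 3 rose and 3 fell, a share of 18.75% that is near the 17.1% of all genes. Without PTH replicate 2 the counts were 1 and 5, and without PTH replicate 3 also 5 fell. Adamts1, which cleaves versican and aggrecan, was at 21.8, 23.7 and 38.1 FPKM with PTH and 6.24, 7.49 and 8.27 FPKM with vehicle (log2 fold change 1.79, SE 0.11, adjusted p = 2.4e-11). Mmp11, stromelysin 3, was at 0.98, 1.17 and 1.55 FPKM in PTH kidneys, against 2.22, 3.33 and 5.03 FPKM in vehicle kidneys (log2 fold change -1.40, SE 0.17, adjusted p = 1.6e-06), and neither gene had overlapping groups. Adamts6 fell by 1.11. Fgl2, a prothrombinase, rose by 1.73. Angptl4, an inhibitor of lipoprotein lipase, was at 23.1, 36.1 and 59.6 FPKM with PTH and 54.6, 70.7 and 119 FPKM with vehicle (log2 fold change -1.06, SE 0.17).

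Intracellular signalling genes included several inhibitors that rose. The group of Sprouty, SOCS, RGK and similar inhibitors had 11 higher and 5 lower of 45 (35.6% called). The phosphatase genes (dual-specificity, tyrosine and PPP families) had 12 and 4 of 95, or 16.8%, against 17.1% of all genes (2 lower without vehicle replicate 4 or 7). Rcan1 (gene 54720, chromosome 16, 92391951 to 92466169), an inhibitor of the phosphatase calcineurin that lies outside both groups, had 151, 228 and 326 FPKM in PTH kidneys and 21.1, 27.8 and 51.8 FPKM in vehicle kidneys, with a log2 change of 2.99 (SE 0.20, adjusted p = 3.3e-11). Its promoter holds a full cAMP response element. The MAP kinase phosphatase Dusp5 rose by 2.48, Dusp14 by 1.61 and Dusp8 by 1.37, and with a pseudocount of 1 FPKM Dusp5 and Dusp8 were at 1.61 and 0.71. Dusp1 was at 40.6, 64.7 and 244 FPKM with PTH and 15.3, 24.3 and 37.1 FPKM with vehicle (log2 fold change 1.71, SE 0.32, adjusted p = 5.1e-04), the PTH libraries covering a wide range. Gem, an inhibitor of calcium channels, Cish and Socs2, which restrain STAT5 signalling, and Errfi1, an inhibitor of EGF receptors, rose by 1.84, 1.65, 1.12 and 0.96.

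Kinase genes of the AMPK, SIK, PLK and related families had 9 higher and 4 lower of 49 (6 lower without PTH replicate 3, and 2 when any 1 of 7 other libraries was left out). The share called was 26.53%, against 17.1% of all genes. Plk3, a polo-like kinase of stress responses (gene 12795, chromosome 4, 117128655 to 117133963), was at 55.2, 105 and 180 FPKM in PTH kidneys and at 2.48, 5.21 and 11.9 FPKM in vehicle kidneys (log2 fold change 4.21, SE 0.34, adjusted p = 1.6e-09). Sik1 and Sik2, the salt-inducible kinases, rose by 1.25 and 0.83, whereas Sik3 was at 12.7, 18.3 and 23.4 FPKM with PTH and 13.7, 15.7 and 18.6 FPKM with vehicle (log2 fold change 0.11, adjusted p = 0.54). Nuak2, an AMPK-related kinase, was at 4.99 to 11.4 FPKM with PTH and 12.2 to 17.3 FPKM with vehicle (log2 fold change -1.01, SE 0.19).

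Metabolic enzymes were led by the vitamin D hydroxylases. Cyp27b1, which makes active vitamin D, was at 29.8, 57.1 and 142 FPKM in PTH kidneys and 2.69, 4.17 and 7.05 FPKM in vehicle kidneys, and Cyp24a1, which degrades it, at 0.73, 3.31 and 6.04 FPKM with PTH and 20.3, 38.9 and 172 FPKM with vehicle. Their log2 fold changes were 3.64 and -3.84. Of 41 cytochromes P450 Cyp27b1 alone rose and 7 were lower, Cyp2a5 (log2 fold change -0.82) among them. That is 19.51% called, near the 17.1% of all genes. The lower count was 4 with median-ratio scaling, quantile normalization or the length and GC trend removed, and 4 without vehicle replicate 2, 3 or 6 or PTH replicate 4 or 6. Higher were 2 with that trend removed, and 2 without vehicle replicate 6 or PTH replicate 3. Iyd, an iodotyrosine deiodinase that salvages iodide, had 121, 138 and 160 FPKM with PTH and 53.8, 60.6 and 64.5 FPKM with vehicle (log2 fold change 1.21, SE 0.07, adjusted p = 4.5e-12). Lpin1, a phosphatidate phosphatase and coactivator, was at 44.2, 66.0 and 84.4 FPKM with PTH and 10.9, 16.1 and 23.7 FPKM with vehicle (log2 fold change 2.03). G6pc, which releases free glucose, rose by 1.39. Amino acid and one-carbon enzymes of the proximal tubule had 3 higher and 0 lower of 49, which is 6.12% called, below the 17.1% of all genes. Without PTH replicate 4 the counts were 3 and 5, and the higher count was 5 without PTH replicate 1, 7 with quantile normalization and 6 with the length and GC trend removed. Mat2a, which makes S-adenosylmethionine, was at 289 to 395 FPKM with PTH and 189 to 216 FPKM with vehicle (log2 fold change 0.73), and the transaminase gene Got1 rose by 0.64.

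Heme breakdown was represented by Hmox1, heme oxygenase 1, which fell and whose vehicle libraries varied widely. It was at 10.6, 22.4 and 50.5 FPKM with PTH and 27.0, 79.4 and 238 FPKM with vehicle (log2 fold change -1.73, SE 0.33, adjusted p = 6.4e-04). The groups overlapped, with 6 of 8 PTH libraries below the vehicle range.

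Several genes with large increases stood outside these families. Tmem252, a membrane protein of unknown function, was at 347, 429 and 786 FPKM in PTH kidneys and 64.9, 80.8 and 117 FPKM in vehicle kidneys (log2 fold change 2.44, SE 0.19, adjusted p = 7.8e-10). Trmt61b, a mitochondrial tRNA methyltransferase, had 13.4, 21.6 and 23.9 FPKM with PTH and 3.05, 3.67 and 5.19 FPKM with vehicle (log2 fold change 2.36). Tinf2, a telomere protein with a full cAMP response element in its promoter, was at 19.2 to 38.7 FPKM with PTH and at 6.98 to 8.64 FPKM with vehicle (log2 fold change 1.68). Pgm5, a phosphoglucomutase relative of muscle adhesion sites, and Impact, an inhibitor of the amino acid sensing kinase GCN2, rose by 1.65 and 1.41. In all of these the ranges of the groups were apart.

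Ribosomal, proteasome and oxidative phosphorylation genes showed only small decreases, and these depended on the processing. No gene rose among 81 cytosolic ribosomal proteins, 42 proteasome subunits or 93 nuclear-encoded subunits of oxidative phosphorylation, where 18 (22.2%), 10 (23.8%) and 11 (11.8%) fell. The last share is close to the 11.1% of all genes. Rpl36a, one of the ribosomal genes, was at 275, 372 and 629 FPKM with PTH and 495, 571 and 627 FPKM with vehicle (log2 fold change -0.50, adjusted p = 0.012), so its highest PTH library was above every vehicle library. Over all genes the lower count was 1558 of 13991, 1102 with median-ratio scaling and 1212 of 13866 with the length and GC trend removed. For ribosomal, proteasome and oxidative phosphorylation genes the lower counts were 7, 3 and 4 with median-ratio scaling. With the length and GC trend removed they were 8, 2 and 4, with 1, 1 and 3 higher. Quantile normalization left them at 19, 9 and 9, and weighting the libraries by quality gave 42, 17 and 20. Single libraries also decided them: the ribosomal count was 35 without PTH replicate 4 and 7 without PTH replicate 5, 6 or 7, the proteasome count 16 without PTH replicate 3 and 4 without PTH replicate 5, 6 or 7, and the oxidative phosphorylation count 16 without PTH replicate 3 and 5 without PTH replicate 5 or vehicle replicate 1, 4 or 6. Transcripts of these families are short, with median lengths of 1106, 1931 and 1129 bases against 3221 for all genes. Aminoacyl-tRNA synthetases had 1 higher and 9 lower of 36, with 5 lower under median-ratio scaling and 3 with the length and GC trend removed. The member that rose was Eprs, the synthetase for glutamate and proline, which was at 57.5, 67.8 and 82.7 FPKM with PTH and 30.5, 33.4 and 35.96 FPKM with vehicle (log2 fold change 1.02, SE 0.08, adjusted p = 4.1e-10). Chaperones and their cofactors had 13 higher and 11 lower of 95 (6 lower without PTH replicate 6 or with median-ratio scaling, and 21 higher with the length and GC trend removed), with the Hsp40 genes Dnajb4 and Dnajb1 at 1.53 and 0.71. The share called was 25.26% of chaperones and 27.78% of synthetases, against 17.1% of all genes.

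Fold change followed transcript length and base composition. With genes ranked by transcript length and cut into 5 equal bins, the shortest transcripts (median 1266 bases) had a median log2 fold change of -0.083, and 3.6% rose and 11.92% fell. For the longest (median 6575 bases) it was -0.003, with 6.85% and 6.67%. Bins 2, 3 and 4 between them had 14.13%, 12.91% and 10.12% lower, so the share that fell was largest in bin 2. By transcript GC content the medians ran from -0.082 in the lowest bin (41.37% GC) to -0.005 in the highest (57.75% GC). Within single libraries, the rank correlation across 8997 genes between transcript length and the deviation from the vehicle mean ran from -0.326 to 0.346 in PTH and from -0.254 to 0.258 in vehicle libraries. It was negative in PTH replicates 2, 3 and 4 and positive in the other 5. With GC content it was 0.554 in PTH replicate 4, from -0.207 to 0.158 in the other PTH libraries and from -0.241 to 0.162 in vehicle libraries. Removing both trends from each library left 1137 genes called higher and 1212 lower of 13866, against 833 and 1547 over the same genes without removal, and 123 higher and 38 lower at least 2-fold. This fit was chosen after the data were seen.

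**Figure D4:**
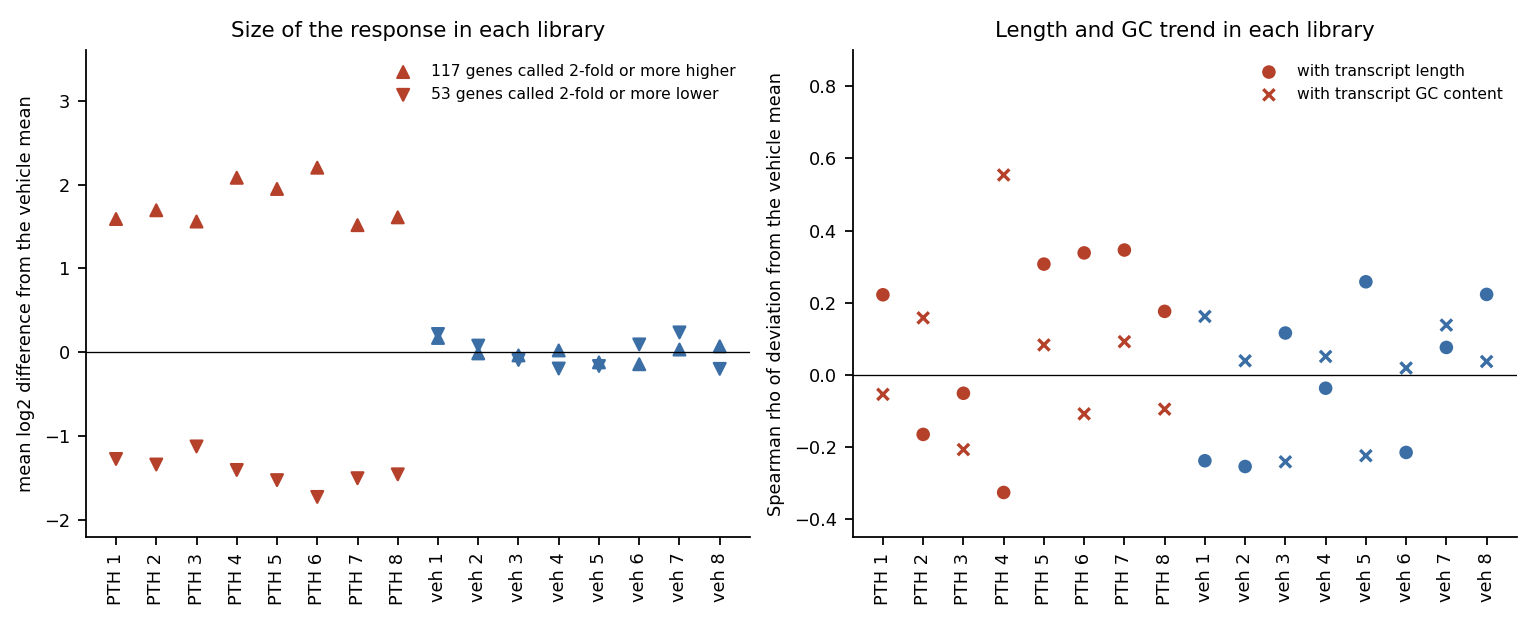
Left, mean log2 difference of each library from the vehicle mean over the 117 genes at least 2-fold higher (upward triangles) and the 53 at least 2-fold lower (downward triangles). Right, Spearman rank correlation across 8997 genes of each library's deviation from the vehicle mean with transcript length (circles) and GC content (crosses). PTH libraries are red and vehicle libraries blue. All 8 PTH libraries responded, by 1.52 to 2.20 and -1.72 to -1.12, and PTH replicate 4 stands apart on the right at a GC correlation of 0.554.

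Every PTH library showed the response, with differences in size. Over the 117 genes at least 2-fold higher, the mean log2 difference from the vehicle mean was 2.20 in PTH replicate 6, 2.08 in replicate 4 and 1.95 in replicate 5, and 1.52 to 1.69 in the other 5. Over the 53 at least 2-fold lower it ran from -1.72 in replicate 6 to -1.12 in replicate 3. These genes were chosen on the same libraries, so the values describe how evenly the response was shared and test nothing.

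The spread between libraries was wider with PTH across most of the genome. The median SD on the log2 scale was 0.246 over PTH and 0.165 over vehicle libraries, and 10714 of 13991 genes (76.6%) had the larger SD with PTH. This held at every level of expression, from 60.9% of genes under 2 FPKM (median SD 0.438 with PTH and 0.388 with vehicle) to 86.7% of those at 50 FPKM or more (0.201 and 0.111). Without PTH replicate 4 the share was 68.8% and the median PTH SD 0.218, and without any other PTH library it was 74.5% to 77.2%. The larger SD was with PTH in 67 of the 117 genes at least 2-fold higher (57.3%) and in 41 of the 53 at least 2-fold lower (77.4%). These shares depended on the pseudocount: with 1 FPKM they were 91 of the 117 (77.8%) and 28 of the 53 (52.8%). No test was made of the share, since genes of the same library are not independent.

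**Figure D5:**
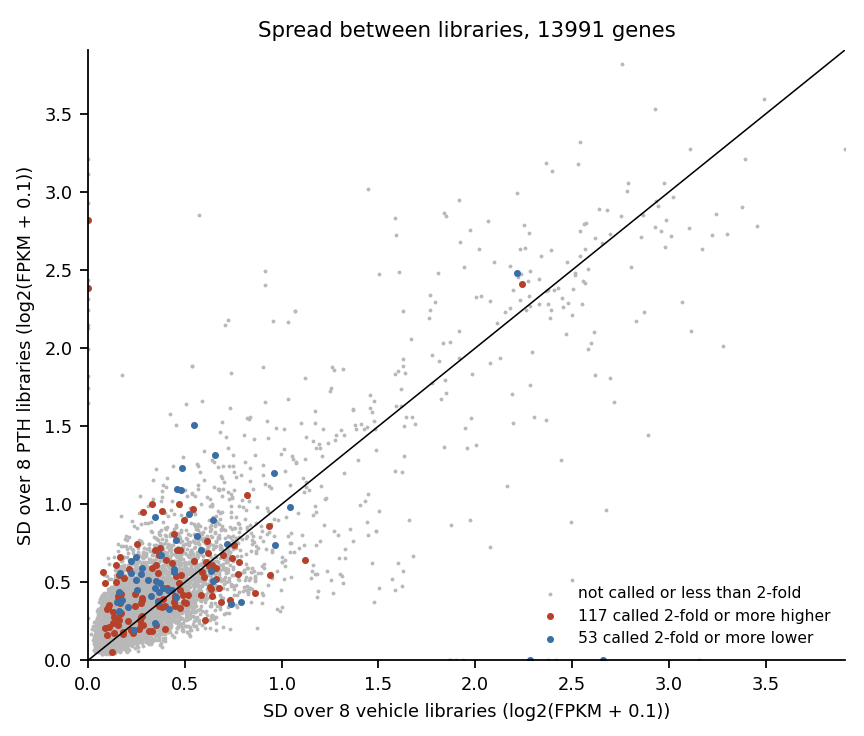
SD over the 8 PTH libraries against SD over the 8 vehicle libraries for each of 13991 genes, on the log2(FPKM + 0.1) scale, with the line of equality. Red and blue points are the 117 and 53 genes at least 2-fold higher and lower, and 76.6% of all points lie above the line.

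Whether the size of the Cyp27b1 response went with other genes was asked across the 8 PTH libraries, in 6 relations. Cyp27b1 and Cyp24a1 had Pearson r = -0.784 (exact permutation p = 0.0224, adjusted p = 0.0671) and Spearman rho = -0.714 (exact permutation p = 0.0576, adjusted p = 0.173), and r was -0.238 without the 2 libraries farthest from the median of Cyp27b1, so the relation rests on them. Cyp27b1 and G6pc had r = 0.772 (exact permutation p = 0.0197, adjusted p = 0.0671) and rho = 0.738 (exact permutation p = 0.0458, adjusted p = 0.173), with r = 0.627 without those 2. With Crem, r was 0.719 (exact permutation p = 0.0475, adjusted p = 0.095) and rho 0.476 (exact permutation p = 0.243, adjusted p = 0.486), with r = 0.440 without the 2. The remaining relations, with Nr4a1, Fos and the urothelium score, had r of 0.254, 0.379 and 0.033, with exact permutation p of 0.549, 0.359 and 0.942. Without the 2 libraries farthest from the median of Cyp27b1, these r were 0.44, 0.563 and 0.571. No relation passed the correction for 6 tests.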

How the data were processed

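Whole-kidney RNA was sequenced on a BGISEQ500 instrument. The authors deposited FPKM (fragments per kilobase of transcript, scaled to mapped fragments) with 2 decimals for all 24 libraries in 1 table, and each library's values are therefore relative to its own total. STAR 2.7.2b, RSEM 1.3.0, DESeq2, mm10 and GRCm38 appear in the submitters' processing notes with no role stated. The annotation release and the strand setting were not given in the sources used here, and reads of overlapping or antisense genes may be mixed. One column (1 in all) repeated PTH replicate 3 and was left unused. RefSeq identifiers matched 99.66% of 19426 entries, and 25 date-like symbols were restored. Depth came from low values of genes 700 to 1200 bases long, of which 69.4% to 81.5% lay within 0.2 of a whole fragment. The depth was chosen to maximize this closeness, so the share is no separate check of it. In some libraries another depth scored almost as well (0.54 against 0.567 in PTH replicate 6). Counts per gene were not recovered, so count models were not used.

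Analysis was on log2(FPKM + 0.1), a scale that compresses changes of weakly expressed genes. It covered the 13991 genes whose mean over all 24 libraries reached 0.5 FPKM. The alternative scalings and the removal of the length and GC trend also used all 24. limma 3.58.1 in R 4.3.3 fitted the 3 groups together (moderated variances, mean-variance trend). A run on simulated data used independent noise with the same SD in every group. That run cannot show how the calls behave under the wider PTH spread or the length and GC trends. Benjamini-Hochberg adjustment covered all genes, the call was at 0.05, and 2-fold means a log2 fold change of 1 or more in size. Families were defined from symbols or listed by hand, symbols naming an unrelated protein were removed after the members were seen, and no family was tested. The members, lists and families were chosen with earlier results of these data known. The naming rule took called genes reaching 1 FPKM in either group: the 30 highest and 30 lowest changes, the 15 smallest adjusted p per direction, up to 5 per family and direction, genes of most unequal spread, and a set fixed whatever its test (Pth1r, Slc34a1 and Sik3 among them). Some genes that the rule took are not reported here. GENCODE gave transcript length and GC content. Alternatives covered the pseudocount, filter, scaling, library weights, libraries fitted, replicate block and each library left out. Python 3.11.15, pandas 2.3.3, numpy 2.4.6, scipy 1.17.1 and matplotlib 3.10.9 were used.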

Additional observations from a re-analysis of the deposited data

Results flagged for a closer look

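In 262 groups of 8 libraries (named genes and library summaries, on the log2 scale for genes) 21 had 1 library far from the other 7, by the ratio of its gap to the range of its group. Chance alone gives about 1 in 20 such groups.

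PTH replicate 4 was far above the other PTH libraries for 4 genes: Gdf15 (7.28 FPKM, the next at 3), Hps4 (22.87, next 12.1), Slc38a3 (58.22, next 30) and Tmem252 (785.84, next 498). It is also the library with the strongest GC trend. PTH replicate 6 was highest for Errfi1 (549.63 FPKM, next 403) and Nfil3 (19.48, next 11.8), PTH replicate 2 for Chrdl2 (0.96, next 0.49) and PTH replicate 7 for Erbb2 (12.96, next 10.02). PTH replicate 1 was lowest for Adm2 (0.61 FPKM, next 1.41) and PTH replicate 5 for Lpar6 (5.18, next 6.41).

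Vehicle replicate 7, the vehicle library with the highest urothelium score, stood apart for 6 genes. It was highest for Slc20a1 (23.67 FPKM, next 17.98) and Tnfrsf1b (2.36, next 1.11), and lowest for Cish (2.97, next 6.94), Nfil3 (1.18, next 3.02), Socs2 (4.65, next 9.2) and Mchr1 (0, next 0.32). Vehicle replicate 2 was lowest for Calca (0.32 FPKM, next 0.89) and Zfp28 (1.7, next 1.98), replicate 3 for Nuak2 (12.21, next 14.7), replicate 5 for Zbtb21 (2.37, next 3.03) and replicate 8 for Tmem198 (0.13, next 0.41). The part of the urothelium and GC values in these was not tested.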

How the results depend on the processing

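Of 127 genes checked under 27 alternatives (26 for Chrdl2, Nog, Tmem198 and Tnfrsf25, which a filter at 1 FPKM removes), 126 kept their direction and their side of the threshold in each that gave a value, and the exception was Avpr1a (log2 fold change 0.38, adjusted p = 0.0737, without the 3 libraries highest in urothelium markers). A pseudocount of 1 FPKM left 93 genes called at least 2-fold, 81 higher and 12 lower, where 0.1 FPKM gave 170, 117 and 53. It shrinks low genes by construction, Tmem198 for example to a log2 fold change of 0.70. Leaving out single libraries gave 1931 (without PTH replicate 8) to 2789 (without PTH replicate 3) genes called, and 108 to 129 higher and 43 to 62 lower at least 2-fold. The share of called genes that were higher was 35.0%, 49.9% with median-ratio scaling, 44.1% with quantile normalization and 48.4% with the length and GC trend removed, the last chosen after seeing the data. No pairing by replicate number was seen: deviations of same-numbered PTH and vehicle libraries correlated at -0.201 to 0.073, 0 of 8 best with their own number. The replicate block gave 2203 calls. Low correlations cannot show that the samples were unpaired. Over all genes the wider spread with PTH held under median-ratio scaling (76.1% of genes) and a pseudocount of 1 FPKM (76.35%). In the 250 bases before the start alone, the full cAMP response element was in 10.87% of the promoters of genes at least 2-fold higher, against 2.82% of all. At this depth, genes near 0.5 FPKM rest on few fragments.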
